A study of Mus musculus with 24 samples.

Results

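Sox2, Sox8, Sox9 and Sox10 are transcription factors that mark glia, supporting cells, melanocytes and cartilage of the inner ear. They were picked by gene symbol and are 4 of the 23420 entries of the deposited count table. All 4 were among the 16607 genes that passed the filter on low counts. RNA came from whole cochlea of CBA/Sca mice aged 12 weeks, with 24 libraries in 8 groups of 3. The groups combine noise or sham exposure, night or day, and adrenalectomy (ADX, removal of the adrenal glands and so of their glucocorticoid hormones) or sham operation. They are night noise ADX, night noise sham-operated, day noise ADX and day noise sham-operated, with 4 matching sham exposure groups. All animals share the strain and had surgery of one kind or the other. The noise lasted 1 h at 100 dB SPL, with frequencies of 6 to 12 kHz. By the design text it began at ZT 15 for night or at ZT 3 for day (ZT counts hours from lights on), and tissue was taken 2 h after it. The sample labels give other times, ZT 23 for night and ZT 11 for day, so the clock time of a group is uncertain while its name is not. Nothing states that a group's libraries came from separate animals, so p-values measure the spread between these samples, which may be technical.

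Sox factors bind DNA through an HMG domain and fall into groups by sequence. Sox2 belongs to SoxB1: it sets up the prosensory region of the developing cochlea and stays on in adult supporting cells. Sox8, Sox9 and Sox10 form SoxE. Sox9 drives cartilage formation and is made in many non-sensory cells of the ear, Sox10 is needed by Schwann cells, satellite glia and melanocytes and is found in supporting and strial cells, and Sox8 often overlaps with the other two in glia. The cochlea is a mixture of all of these cell types.

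Sox8 was the member whose level moved with noise, so its promoter is shown. RefSeq's promoter table (GRCm38.p6) held 2 of the 4 members, Sox2 and Sox8. Sox9 and Sox10 are named only. The Sox8 sequence below is chr17:25570637-25570936 on the minus strand, from 250 bases before to 50 bases after the start, written 5′ to 3′. Capitals mark 2 motifs that were found on searching both strands, an E-box (CACGTG, the sequence bound by CLOCK and BMAL1 and by other E-box factors) and GC-boxes (GGGCGG, bound by Sp factors).
Sox8 promoter: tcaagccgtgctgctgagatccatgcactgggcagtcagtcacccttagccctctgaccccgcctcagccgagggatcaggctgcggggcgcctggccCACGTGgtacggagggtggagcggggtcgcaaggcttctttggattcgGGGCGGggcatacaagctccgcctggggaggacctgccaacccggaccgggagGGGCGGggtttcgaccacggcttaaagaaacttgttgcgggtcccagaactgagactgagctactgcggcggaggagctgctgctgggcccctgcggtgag
The E-box began 152 bases before the start, and 7.24% of 27025 RefSeq promoters of this length held one. The GC-boxes began 104 and 51 bases before the start, and 35.9% of promoters held at least 1. The window was 66.3% G and C, against a median of 52.7% over all promoters. The letters of an AP-1 site (TGANTCA, in 7.93% of promoters), a CRE (TGACGTCA, 1.88%), a CCAAT box (CCAAT, 37.9%) and a Sox site (AACAAT, 10.9%) were not in this window. None of these motifs overlapped another here, and a match is a run of letters only.

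Sox8 lies on chromosome 17 from 25565892 to 25570686 on the minus strand (GRCm38, GENCODE vM21), with 3 exon blocks and 3118 exonic bases. The antisense gene 2810468N07Rik, on the plus strand, shares 329 of those exonic bases. The library kit keeps strand, but the strand setting of the counting is not given in the sources used here, so reads of Sox8 and of its antisense partner cannot be told apart with certainty. Sox2, on chromosome 3 from 34650405 to 34652461, has 1 exon and sits inside the long non-coding gene Sox2ot on the same strand without sharing an exonic base. Sox9 lies on chromosome 11 from 112782224 to 112787760 on the plus strand. Sox10 lies on chromosome 15 from 79154908 to 79165240 on the minus strand. Neither overlaps another annotated gene.

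Library totals ran from 18894996 to 36108962 counts. Noise labels were checked on immediate response genes: in the averaged noise comparison Fos rose by a log2 fold change of 2.96 and Gem by 3.27 (edgeR quasi-likelihood test, adjusted p = 2.14e-08 and 1.99e-10). Markers of neighbouring tissue set 3 libraries apart. In night noise ADX a the summed level of 7 pituitary genes was 9679 CPM (counts scaled to library size), against at most 48.9 CPM in any other group. The sum of 8 cerebellar genes was 304 CPM in night noise sham-operated b and 360 CPM in day sham exposure sham-operated b, while the medians were 197 CPM over noise and 213 CPM over sham exposure libraries. Values are therefore also given without these 3 libraries where a call of a member or of a named gene was lost.

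Per kilobase of exon, Sox10 was the most abundant member, with 37.6 to 49.8 RPKM (CPM per kilobase of exon) over the 24 libraries and a median of 43.7 RPKM. Sox9 followed with 16.98 to 28.64 RPKM and a median of 23.4 RPKM, and no library of Sox9 reached the lowest of Sox10. Sox8 had 5.94 to 13.7 RPKM with a median of 9.07, and Sox2 had 5.89 to 8.63 RPKM with a median of 7.26. The ranges of Sox8 and Sox2 overlapped, so these neighbours in the order are not separated by their spread. In counts, Sox2 had 283 to 494 reads a library, Sox8 486 to 1319, Sox9 1361 to 3895 and Sox10 2225 to 4675, so counting error is largest for Sox2. Sox8 also had the widest spread over all libraries, with an SD of 0.32 in log2 CPM, against 0.12 for Sox10.

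**Figure D1:**
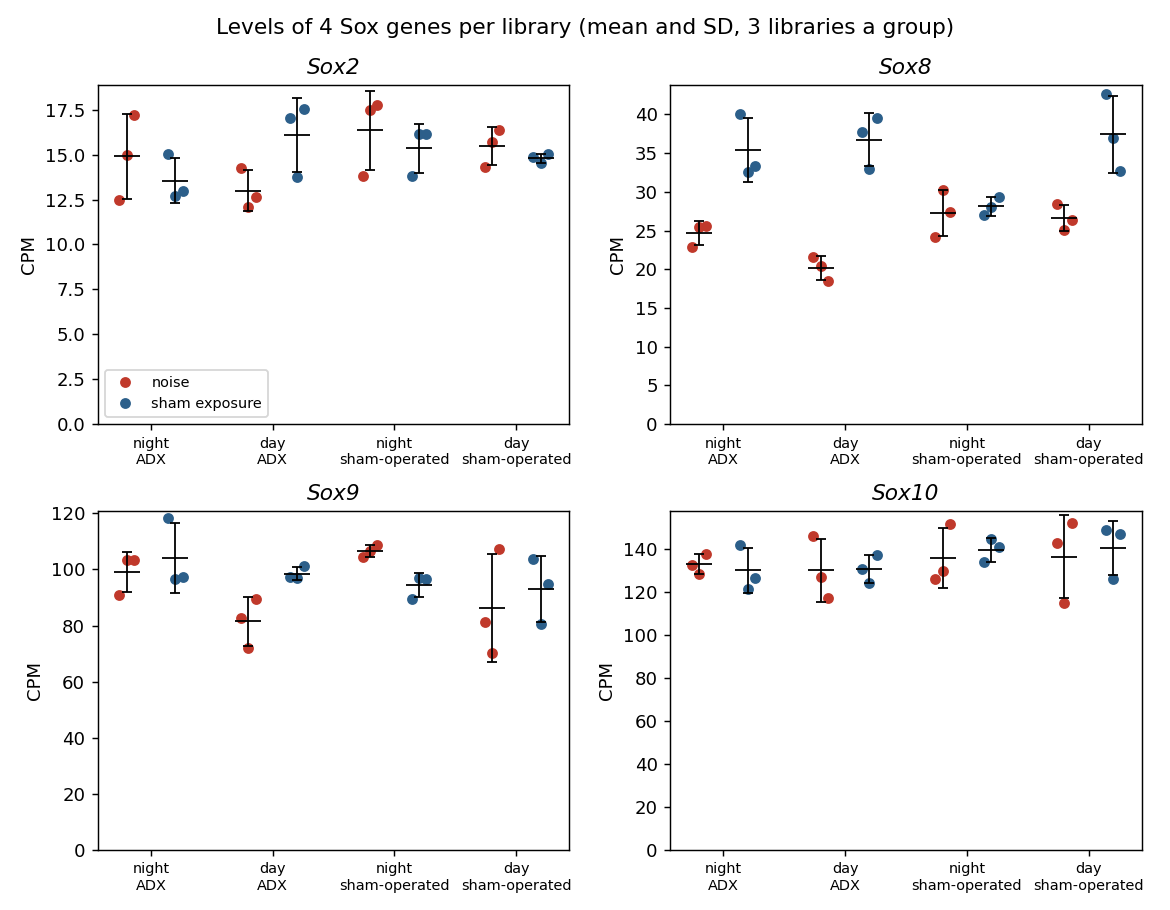
CPM of each member in every library (points), with the mean and SD of 3 libraries (black), for noise (red) and sham exposure (blue) in each period and surgery. For Sox8 the noise libraries lie below the sham exposure libraries in all pairs of groups but night sham-operated, while for Sox10 the groups overlap in each pair.

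Sox8 was lower after noise. Over the 12 noise libraries it had 18.5 to 30.2 CPM with a median of 25.3 CPM, and over the 12 sham exposure libraries 27.0 to 42.6 CPM with a median of 33.2 CPM. Averaged over period and surgery, its log2 fold change was −0.48 (SE 0.0518, adjusted p = 1.62e-06, edgeR quasi-likelihood test with Benjamini-Hochberg adjustment over 16607 genes), a change in level of −28.3% with a 95% interval of −33.5% to −22.8%. Of all genes tested 4.81% passed in this comparison, 2.4% as higher and 2.4% as lower, and Sox8 was 1 of 4 members to pass. By p it ranked 3 among the 8321 genes with a lower estimate. An exact permutation test within the 4 pairs of groups gave p = 0.0001 (two-sided, 160000 arrangements, smallest possible p 1.25e-05). It was 1 of 12 such tests over the members and the 3 factors. In whole tissue, fewer cells that make Sox8 and less Sox8 RNA per cell cannot be told apart.

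In ADX mice at night Sox8 had 22.9, 25.5 and 25.6 CPM after noise, against 40.1, 32.6 and 33.3 CPM after sham exposure. The groups did not overlap, as for 7.68% of all genes in that direction, and the log2 fold change was −0.52 (SE 0.103, adjusted p = 0.0164). In ADX mice by day it had 21.6, 20.4 and 18.5 CPM after noise, against 37.7, 33.0 and 39.6 CPM after sham exposure. These are the lowest noise libraries of the study for Sox8, and the log2 fold change of −0.87 (SE 0.104, adjusted p = 5.01e-05) corresponds to a change in level of −45.1%. Non-overlap in that direction was seen for 13.7% of genes and a call as lower for 2.01%. Several marker sums were lower without overlap in the same pair. Supporting cell genes summed to 1328 to 1733 CPM after noise and 1833 to 1978 CPM after sham exposure, and Schwann cell genes to 3641 to 5044 CPM after noise and 5447 to 6173 CPM after sham exposure. Hair cell genes summed to 362 to 422 CPM after noise and 465 to 543 CPM after sham exposure, and cartilage genes to 2308 to 2615 CPM after noise and 2929 to 3234 CPM after sham exposure. Cerebellar genes, from neighbouring tissue, summed to 157 to 191 CPM after noise and 207 to 228 CPM after sham exposure. Astrocyte and Bergmann glia genes summed to 251 to 307 CPM after noise and 308 to 374 CPM after sham exposure. Neutrophil and myeloid marrow genes went the other way, with a list median of 0.31 in log2, against −0.01 for all genes. They summed to 6960 to 12384 CPM after noise and 6386 to 8652 CPM after sham exposure, with overlap. Strial marginal cell genes had a list median of 0.12. The part of these sums in the Sox8 value was not tested.

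In sham-operated mice at night Sox8 had 24.2, 30.2 and 27.3 CPM after noise, against 27.0, 28.1 and 29.4 CPM after sham exposure. The groups overlapped, and the log2 fold change was −0.05 with a 95% interval of −0.26 to 0.17 (adjusted p = 0.959). In sham-operated mice by day it had 28.5, 25.1 and 26.3 CPM after noise, against 42.6, 36.9 and 32.7 CPM after sham exposure. The groups did not overlap, as for 5.82% of genes, and the log2 fold change was −0.49 (SE 0.104, adjusted p = 0.0481). This call and that of night ADX rest on few libraries: without the 3 libraries named above the adjusted p was 0.107 for day sham-operated and 0.122 for night ADX, with log2 fold changes of −0.50 and −0.47. Day sham-operated stayed past the threshold in 1 of 6 fits that left out 1 of its libraries, and night ADX in 4 of 6, failing without night noise ADX a (adjusted p = 0.0980) and without night sham exposure ADX a (0.137). Day ADX and the averaged comparison passed in each such fit.

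Across the 4 single noise comparisons, Sox8 was called lower in 3. Over all genes, 2 of 16607 (0.012%) were called lower in at least 3 of the 4, Sox8 and Klhdc7a, the second of which was picked out after its values were seen. Calls as lower made up 0.0662% of genes in night ADX, 0.0482% in night sham-operated and 0.0361% in day sham-operated.

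**Figure D2:**
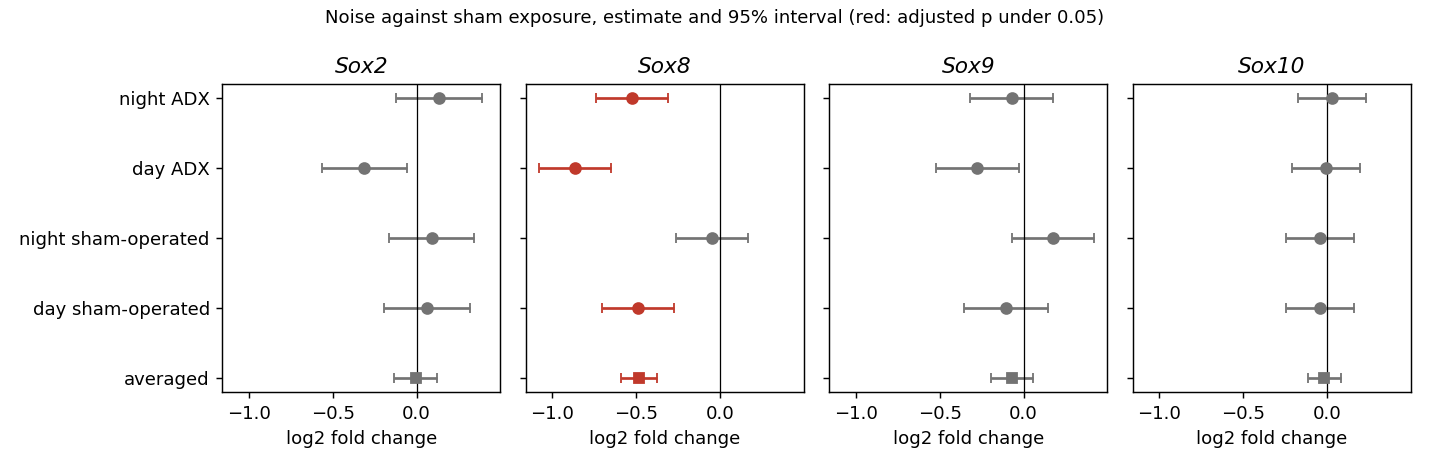
Log2 fold change of noise against sham exposure with its 95% interval for each member, by period and surgery and averaged (square); red marks an adjusted p under 0.05. Sox8 lies at −0.52, −0.87 and −0.49 in 3 comparisons and at −0.05 in night sham-operated; no interval of Sox10 leaves 0.

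In the night sham-operated pair the 3 sham exposure libraries had 28.1 ± 1.21 CPM of Sox8 (mean ± SD). The other sham exposure groups were higher, at 35.3 ± 4.13 CPM in night ADX, 36.7 ± 3.39 CPM in day ADX and 37.4 ± 4.95 CPM in day sham-operated. The noise libraries of this pair had 27.3 ± 2.99 CPM, the highest mean of the noise groups. The others had 24.7 ± 1.52 CPM in night ADX, 20.2 ± 1.54 CPM in day ADX and 26.6 ± 1.73 CPM in day sham-operated. The part of each arm in the small difference of this pair was not tested. Set against day, night sham exposure sham-operated was lower without overlap (7.07% of genes), with a log2 fold change of −0.41 (SE 0.103, adjusted p = 0.102), in a comparison where 0.265% of genes passed. ADX against sham-operated at night without noise gave 0.33 (SE 0.102, adjusted p = 0.106), again without overlap (11.4% of genes in that direction), where 1.58% of genes passed. Neither passed, although the night and day difference passed with DESeq2 (adjusted p = 0.0181) and both passed with limma voom (0.0498 and 0.0477). Those fits called more genes: DESeq2 called 220 of 14349 genes for night against day there and voom 420 of 16607, against 44 by edgeR, and voom called 1262 for ADX, against 263 by edgeR. After day noise, ADX against sham-operated gave −0.40 without overlap (6.84% of genes; SE 0.105, adjusted p = 0.371), and it passed without day noise ADX a (−0.45, adjusted p = 0.0350), in a fit that called 760 genes there, against 0 with all libraries. Night against day after noise in ADX mice went the other way, at 0.29 without overlap (8.31% of genes in that direction; SE 0.105, edgeR adjusted p = 0.171). It was 0.03 in noise sham-operated and −0.05 in sham exposure ADX mice, both with overlap. These comparisons share groups with each other and with the noise comparisons.

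The differences between noise effects on Sox8 were tested directly and none passed. Night minus day was 0.44 in sham-operated mice (95% interval 0.14 to 0.75, adjusted p = 0.418) and 0.34 in ADX mice (0.04 to 0.65, adjusted p = 0.404). ADX minus sham-operated was −0.48 at night (−0.78 to −0.17, adjusted p = 0.760) and −0.38 by day (−0.68 to −0.07, adjusted p = 0.217). At most 0.00602% of all genes passed in any of these contrasts. Averaged over periods, a contrast added after the data had been seen, ADX minus sham-operated was −0.43 (SE 0.103, unadjusted p = 0.000477, adjusted p = 0.241). Averaged over surgeries, a contrast likewise not among those planned, night minus day was 0.39 (SE 0.103, edgeR quasi-likelihood unadjusted p = 0.00106, adjusted p = 0.567). The noise effect on Sox8 is thus not shown to differ with period or surgery. For Sox2, Sox9 and Sox10 none of these contrasts passed either, and the estimate farthest from 0 was 0.44 for Sox2, night minus day in ADX mice (adjusted p = 0.378).

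Sox10, a SoxE relative of Sox8, had 130 to 137 CPM as the mean of each noise group and 130 to 141 CPM as the mean of each sham exposure group. Its averaged noise log2 fold change was −0.02 (95% interval −0.12 to 0.09, adjusted p = 0.909). The ratio of Sox8 to Sox10 counts within a library, which needs no scaling between libraries, was 0.148 to 0.233 after noise (median 0.183) and 0.194 to 0.292 after sham exposure (median 0.266). The mean difference in its log2 was −0.46 (exact permutation p = 0.00025, two-sided). The ratio to Sox9 differed by −0.41 (exact permutation p = 5e-05). Adjusted over 12 tests on ratios, the exact permutation p was 0.0015 for Sox10 and 0.0006 for Sox9. These ratios were added after the data had been seen and hold the same Sox8 counts, so they are no separate support for its fall. In night sham-operated mice Sox8 to Sox10 averaged 0.202 after noise and 0.201 after sham exposure, and it was lower after noise in the other pairs. Sox8 to Sox9 was 0.232 to 0.283 against 0.290 to 0.304 in night sham-operated mice, where Sox9 was higher after noise. In day sham-operated mice it overlapped (0.245 to 0.357 against 0.346 to 0.458).

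The antisense gene moved in the same direction as Sox8. 2810468N07Rik had 5.75 to 9.19 CPM after noise and 7.84 to 10.9 CPM after sham exposure. Its averaged noise log2 fold change was −0.36 (SE 0.0795, adjusted p = 0.00733), and none of its 4 single comparisons passed, at −0.47, −0.53, −0.26 and −0.20 in night ADX, day ADX, night sham-operated and day sham-operated. The ratio of Sox8 to antisense counts had a median of 3.42 after noise and 3.78 after sham exposure, with a log2 difference of −0.11 (exact permutation p = 0.209). Whether both genes moved, or reads of one were counted for the other, cannot be told apart here.

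**Figure D3:**
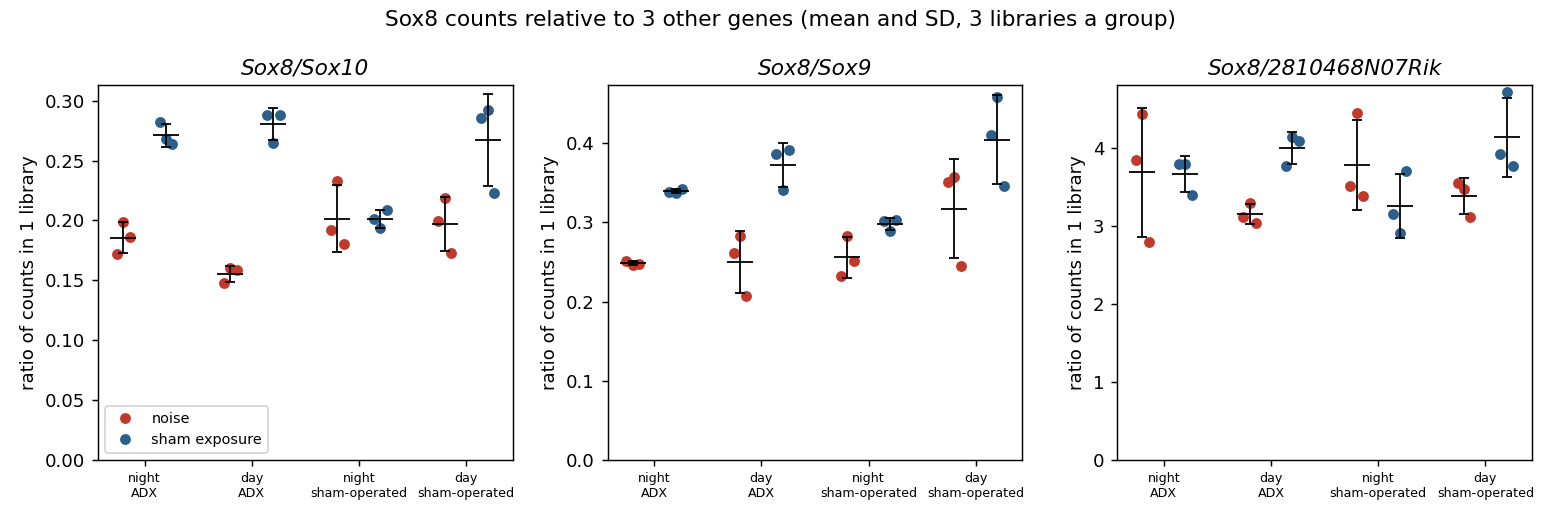
Ratio of Sox8 counts to counts of Sox10, Sox9 and the antisense gene 2810468N07Rik in each library (points), with the mean and SD of 3 libraries, for noise (red) and sham exposure (blue). The medians of Sox8 to Sox10 are 0.183 after noise and 0.266 after sham exposure, and those of Sox8 to the antisense gene are 3.42 and 3.78.

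Sox2 did not pass in any noise comparison. It had 12.1 to 17.8 CPM after noise (median 14.7) and 12.7 to 17.5 CPM after sham exposure, and the averaged log2 fold change was −0.01 (95% interval −0.13 to 0.12, adjusted p = 0.974). By day in ADX mice it had 14.3, 12.1 and 12.6 CPM after noise, against 17.1, 13.7 and 17.5 CPM after sham exposure. That pair gave the lowest estimate, −0.31 (SE 0.122, adjusted p = 0.133), and the groups overlapped. Sox2ot, the host transcript of Sox2, gave −0.76 in the same pair (adjusted p = 0.0665) and −0.07 on average.

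Sox9 did not pass either, with an averaged noise log2 fold change of −0.07 (95% interval −0.19 to 0.05, adjusted p = 0.591). In day ADX mice it had 82.8, 72.1 and 89.6 CPM after noise, against 97.4, 96.8 and 101 CPM after sham exposure. The groups did not overlap, as for 13.7% of genes, and the log2 fold change was −0.27 (SE 0.119, adjusted p = 0.170). In night sham-operated mice it had 105, 107 and 109 CPM after noise, against 89.4, 97.0 and 96.7 CPM after sham exposure. There the noise libraries were the higher ones, without overlap (6.91% of genes), and the log2 fold change was 0.18 (SE 0.118, adjusted p = 0.771).

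For night against day, averaged over exposure and surgery, 6.01% of genes passed, 3.76% as higher and 2.25% as lower, and none of the 4 members did, by edgeR, limma voom or DESeq2. Sox9 alone had an unadjusted p under 0.05: its log2 fold change was 0.17 (SE 0.0594, unadjusted p = 0.00857, adjusted p = 0.0909; exact permutation p = 0.0138). After noise it averaged 99.2 ± 7.11 CPM at night and 81.5 ± 8.84 CPM by day in ADX mice, and 107 ± 2.06 CPM at night and 86.3 ± 19.1 CPM by day in sham-operated mice (SD, n = 3 each). The ADX groups did not overlap, as for 8.31% of genes. The single comparisons gave 0.29 and 0.30 (adjusted p = 0.214 and 0.229). Without noise they gave 0.08 in ADX and 0.02 in sham-operated mice. Among fits leaving out 1 library, the averaged value passed in 1, without day noise sham-operated c (0.22, adjusted p = 0.00875), the library with 107 CPM in a day group whose others had 81.3 and 70.2 CPM. The single comparison in sham-operated mice after noise ran from 0.18 to 0.49 in such fits and also passed without that library (0.49, adjusted p = 0.0369). Sox2, Sox8 and Sox10 gave 0.02, −0.04 and 0.00.

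For ADX against sham-operated, averaged over exposure and period, 3.2% of genes passed, 1.68% as higher and 1.52% as lower, and again none of the 4 did, with none at an unadjusted p under 0.05 by edgeR. The estimates were −0.11 for Sox2 (95% interval −0.24 to 0.02), −0.08 for Sox10 (−0.18 to 0.02), −0.06 for Sox8 (−0.17 to 0.05) and 0.01 for Sox9 (−0.11 to 0.13). None of these averaged intervals reached a change of 0.25 in log2. Among the single comparisons, Sox2 after day noise gave −0.25 without overlap (6.84% of genes in that direction; edgeR adjusted p = 0.430). Sox9 after night noise gave −0.10 (edgeR adjusted p = 0.861). It had 91.0 to 103.5 CPM in ADX and 104.5 to 108.6 CPM in sham-operated mice.

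The rest of the Sox family was tested in the same fit. Of 16 other Sox genes in the table, 12 passed the filter on low counts. In the averaged noise comparison Sox15 fell by 0.85 on the log2 scale (SE 0.233, adjusted p = 0.0357) and the other 11 did not pass, with a median of −0.09 over the 12, against 0.00 over all genes. Sox15 is scarce here, with group means from 0.295 to 0.844 CPM, and in day sham-operated mice its mean was 0.675 CPM after noise and 0.555 CPM after sham exposure. Sox12, a SoxC factor, was higher at night by 0.15 (adjusted p = 0.0124), a call lost without the 3 libraries. Sox4, also SoxC and active in progenitors, was higher after ADX by 0.26 (adjusted p = 0.0112). Without noise it had 58.4 ± 5.11 CPM in ADX and 40.2 ± 1.79 CPM in sham-operated mice at night, and 50.1 ± 5.57 CPM in ADX and 37.7 ± 4.07 CPM in sham-operated mice by day. After noise it had 45.3 ± 3.18 CPM in ADX and 42.7 ± 3.23 CPM in sham-operated mice at night, and 42.7 ± 4.26 CPM in ADX and 42.8 ± 6.75 CPM in sham-operated mice by day. Both pairs of noise groups thus lay within their spread. In the direct contrasts of noise effects between ADX and sham-operated mice no gene passed, so such a difference is not shown for Sox4. Sox5 and Sox6, SoxD partners of Sox9 in cartilage, did not pass in any averaged comparison. Their noise log2 fold changes were −0.07 and 0.00.

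Genes that work with or under the members mostly did not pass in the averaged comparisons, which the list counts below refer to unless a pair of groups is named. Of 20 Notch and prosensory genes, which act with Sox2, 1 rose with noise (Hey1, a Notch target, 0.17, adjusted p = 0.0204) and none fell. At night 4 of the 20 rose, among them Prox1 (0.25, adjusted p = 0.0475), a supporting cell transcription factor, and Notch3 (0.16, adjusted p = 0.0284). None of these 4 passed without the 3 libraries. Of 13 supporting cell markers, the gap junction genes Gjb6 (−0.29, adjusted p = 0.00198) and Gjb2 (−0.25, adjusted p = 0.0118) fell with noise, and the tectorial membrane gene Tectb fell after ADX (−0.79, adjusted p = 0.00538). The sum of these markers was 1328 to 1948 CPM after noise and 1729 to 2018 CPM after sham exposure, with medians of 1660 and 1859 CPM. This sum was thus lower at the median with noise, as Sox8 was, and its part in the Sox8 result was not tested.

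Among 18 Schwann cell genes, a list that includes targets of Sox10, 1 rose and 1 fell with noise. Egr2, a myelination factor that is also an immediate early gene, rose by 0.38 (adjusted p = 0.000286), and S100b, a calcium-binding protein of glia, fell by 0.33 on the log2 scale (adjusted p = 0.00976). The list's median was 0.04, against 0.00 for all genes. The summed level of these genes was 3641 to 5893 CPM over all noise libraries and 4098 to 6663 CPM over all sham exposure libraries. These pooled ranges overlap, but the sum was lower without overlap in day ADX mice, as given above. It was higher without overlap in day sham-operated mice, with 5116 to 5868 CPM after noise and 4776 to 4808 CPM after sham exposure, the pair in which Sox8 was lower. The part of this sum in the Sox8 results was not tested. Ncmap, a myelin protein, rose at night (0.28, adjusted p = 0.0290), and this call was lost without the 3 libraries. None of 11 melanocyte and strial intermediate cell genes passed for averaged noise or night. Pmel, a melanosome protein, fell after ADX (−0.83, adjusted p = 0.00642).

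Of 14 cartilage genes tested, most of them targets of Sox9 in chondrocytes, Col9a1 fell with noise (−0.51, adjusted p = 0.0212) and Col2a1 rose after ADX (0.59, adjusted p = 0.0160). The median over the list for noise was −0.05. Since Sox9 did not pass in either comparison, these are given as values beside it only. Bone markers, from the capsule that comes with the tissue, had Dmp1, an osteocyte protein, higher with noise (0.34, adjusted p = 0.00145) and 8 of 9 genes not passing. In the night comparison Alpl, a bone phosphatase, rose by 0.22 (adjusted p = 0.0408), and after ADX Sost, an osteocyte inhibitor of Wnt signalling, fell by 0.28 (adjusted p = 0.00501).

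**Figure D4:**
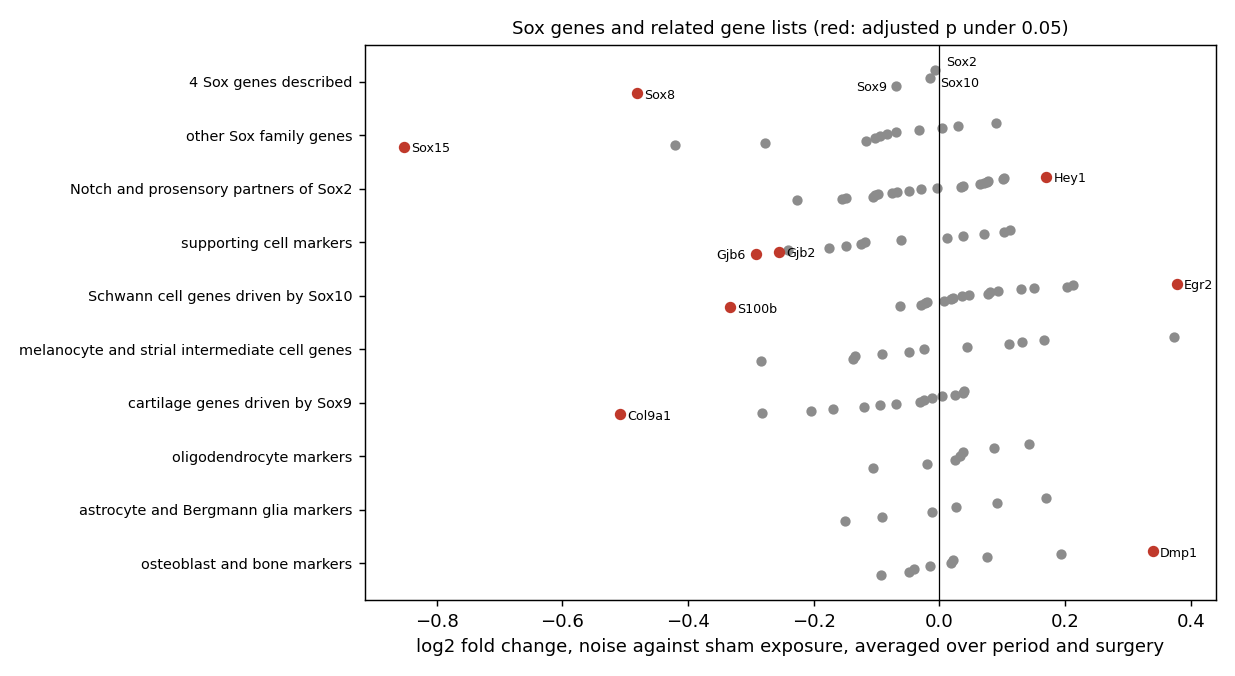
Log2 fold change of noise against sham exposure, averaged over period and surgery, for the 4 members and for genes of related lists (1 point a gene); red marks an adjusted p under 0.05. Sox8 at −0.48 stands to the left of Sox9, Sox10 and Sox2, and each list has at most 2 genes past the threshold.

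Sox8 and Sox10 are also made by oligodendrocytes, and Sox9 by astrocytes, which would enter with brainstem tissue. No oligodendrocyte marker (7 tested) or astrocyte marker (6 tested) passed for averaged noise or in a single noise comparison. The 8 oligodendrocyte genes summed to 43.1 to 110 CPM after noise and 22.5 to 113 CPM after sham exposure, and none was at 0 in every library. The 6 astrocyte genes summed to 229 to 452 CPM after noise and 207 to 429 CPM after sham exposure. Of these, Aldh1l1 fell at night (−0.21, adjusted p = 0.0330). Of 8 cerebellar genes Fat2, a granule cell cadherin, fell with noise (−0.39, adjusted p = 0.000433) and at night (−0.23, adjusted p = 0.0350). Pooled over groups, these sums overlap between exposures. By pair, the cerebellar and astrocyte sums were lower after noise without overlap in day ADX mice, as given above. So was the cerebellar sum in day sham-operated mice (197 to 210 against 239 to 360 CPM). In night ADX mice it was 173.2 to 196.6 against 196.7 to 211.8 CPM. Sox8 was called lower in each of these pairs. In night sham-operated mice the cerebellar sums overlapped (198 to 304 against 173 to 225 CPM). Their part in the Sox8 results was not tested. Without the cerebellar and pituitary libraries the averaged Sox8 log2 fold change was −0.49 (edgeR adjusted p = 1.54e-05).

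The remaining marker lists give the state of other cochlear cells in the same libraries. In the averaged noise comparison none of 15 hair cell genes, 12 spiral ganglion neuron genes or 8 strial marginal cell genes passed. The spiral ganglion sum was higher after noise without overlap in day sham-operated mice (3411 to 3704 against 2381 to 3094 CPM). In night sham-operated mice it was lower without overlap (2884 to 3035 against 3177 to 3828 CPM). The bone marker sum was higher without overlap in day sham-operated mice (2848 to 3182 against 2155 to 2731 CPM). Other pairs overlapped for these sums. The part of these sums in the Sox8 results was not tested. In day ADX mice 3 of the 15 hair cell genes fell with noise, with a list median of −0.34 against −0.01 for all genes. They were Loxhd1, a stereocilia protein (−0.80, adjusted p = 0.0202), Chrna10, an acetylcholine receptor subunit (−0.75, adjusted p = 0.0172), and Myo6, a hair cell myosin (−0.34, adjusted p = 0.0445). After ADX, 5 hair cell genes fell, led by the acetylcholine receptor gene Chrna9 (−0.50, adjusted p = 0.0111), with Loxhd1 (−0.42, adjusted p = 0.0142) and Chrna10 (−0.36, adjusted p = 0.0207). At night the strial genes Bsnd (−0.29, adjusted p = 0.0167) and Kcne1 (−0.19, adjusted p = 0.0249), which encode channel subunits, fell, Esrrb rose (0.16, adjusted p = 0.0434), and the neuronal tubulin Tubb3 rose (0.19, adjusted p = 0.0433). Of 6 fibrocyte markers, Slc4a11, a membrane transporter, fell with noise (−0.35, adjusted p = 0.0353), as did Gjb2, which is on this list too. Without the 3 libraries Aldh1l1, Tubb3 and Esrrb did not pass at night, and 1 of the 8 strial genes fell there. Other lists gained calls in that fit: after ADX 3 cartilage genes were higher and 1 lower, 2 bone genes were higher, 2 melanocyte genes were lower, 1 fibrocyte gene was higher and 1 lower, and 1 strial marginal gene was lower. At night 2 bone genes and 1 cartilage gene were higher, and 1 cerebellar gene was higher with noise. No gene of the 4 pituitary, 8 myeloid and 7 skeletal muscle genes tested passed in an averaged comparison.

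Across the 24 libraries the members were loosely related in log2 CPM. Pearson's r was 0.459 for Sox2 and Sox10, 0.430 for Sox2 and Sox9, 0.423 for Sox9 and Sox10, 0.416 for Sox8 and Sox9, 0.360 for Sox2 and Sox8 and 0.236 for Sox8 and Sox10. Permutation p-values adjusted over the 6 pairs were 0.0638 to 0.267 for r. Spearman's rho ran from 0.172 to 0.543, and its adjusted permutation p was 0.0422 for Sox2 and Sox9, the lowest of the 6 pairs. Without the 2 libraries farthest from the median of the first gene, r for Sox2 and Sox9 was 0.304 and for Sox8 and Sox10 −0.02. Within exposures, Sox2 and Sox8 gave r = 0.783 over 12 noise libraries and 0.241 over 12 sham exposure libraries, a difference that was not tested. Deviations from the group means correlated at 0.345 to 0.640. All values of a library share its RNA and its scaling factor.

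Likeness was measured over 15156 genes whose mean log2 CPM was 0 or more. Those most like Sox8 across the libraries were Pdk2 (r = 0.881), Wdr86, Rftn2, Ppp1r3c and Dlg3 (0.829). For Sox10 they were Fxyd6 (0.868), Pebp1, Fbxo44, Mtch1 and Prom2 (0.822). For Sox9 they were Pou3f3 (0.877), Heyl, Irx5, Lurap1l and Speg (0.776), and for Sox2 Skida1 (0.826), Dtna, Nrcam, Sgcb and Cpeb1 (0.772). When the group means were removed first, the closest were Cyp46a1 for Sox8 (0.875), Smo for Sox10 (0.943), Tusc2 for Sox9 (0.852) and Bhlhe41 for Sox2 (0.901). Pou3f3 and Irx5 stayed among the 5 closest to Sox9 by both measures, and Mtch1 among those of Sox10. No gene was on both lists of Sox8 or of Sox2.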

How the data were processed

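RNA of whole cochlea was sequenced from stranded poly-A libraries (single reads), per the labels' protocols. The deposited table holds raw read counts per gene symbol for 24 libraries, and the authors applied no normalisation to them. TopHat2 2.0.11, HTSeq 0.6p1 and mm10 are named in the submitters' processing notes, while the annotation and strand setting are not given in the sources used here. Of 23420 entries, 3340 had no counts, and 27 names that a spreadsheet had turned into dates (0.214% of counts) stayed unidentified.

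Counts were fitted with edgeR 4.0.16 in R 4.3.3: filterByExpr (16607 genes), TMM factors (0.974 to 1.02), 1 coefficient per group over all 24 libraries, robust quasi-likelihood F-tests, Benjamini-Hochberg adjustment over all genes, threshold 0.05, two-sided. Intervals are 95%. The common biological coefficient of variation was 0.0991. CPM use TMM, log2 CPM a prior count of 2, and RPKM divide CPM by the exonic length in GENCODE vM21. The fit was tested on simulated data. Alternatives were RLE factors, DESeq2 1.42.0, limma 3.58.1 voom, no filter, fits of the compared groups, a replicate block and leaving out libraries. No library repeated another (chi-square per gene at least 6.1 between libraries of a group).

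The members and gene lists were chosen with earlier results of these data known. Named genes were all members, Sox4, Sox5, Sox6 and passing Sox genes, up to 3 passing genes a list and averaged comparison by adjusted p, and the 5 genes most correlated with each member.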

Additional observations from a re-analysis of the deposited data

How the results depend on the processing

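The averaged Sox8 noise effect (log2 −0.48) passed in 24 of 24 fits leaving out 1 library (−0.50 to −0.45) and in 6 of 6 other settings. Day ADX (−0.87) passed in 6 of 6 (−0.93 to −0.80) and 7 of 7. Day sham-operated (−0.49) did not pass in the fit of only the groups compared (−0.49, adjusted p = 0.114), with voom (−0.45, 0.0658) or without the 3 libraries (−0.50, 0.107), and leave-one-out values ran from −0.58 to −0.38. Night ADX (−0.52) missed in the same settings (−0.52, 0.0813; −0.49, 0.0598; −0.47, 0.122), with a leave-one-out range of −0.58 to −0.42. Sox9 at night (0.17) ran from 0.14 to 0.22. The causes were not tested beyond the fewer libraries in such fits. With the replicate letter as a block, Sox8 in day sham-operated gave −0.49 (adjusted p = 0.0730), no other call of a member changed, and 773 genes passed for averaged noise, against 798. Deviations from the group means of same-letter libraries of different groups correlated at −0.34 to 0.51 (median 0.01, over 0.1 in 24 of 84 pairs). The median for different letters was −0.00034. At the median no pairing by letter was seen, but these values cannot exclude a pairing of some groups.

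Uncalled values near 0 changed sign. Averaged Sox2 noise was 0.0030 with voom and 0.0062 without the 3 libraries (0.0064 by mean log2 CPM), Sox9 ADX was −0.0021 with voom, and Sox10 night was −0.0076 without the 3 (−0.0061 by mean log2 CPM). Sox10 noise in day ADX was 0.00013 with RLE and 0.00023 with DESeq2. Without the 3, night against day was −0.072 for Sox9 in sham exposure sham-operated and −0.048 for Sox8 in noise sham-operated. Leaving out 1 library, averaged noise ran from −0.036 to 0.022 for Sox2 and −0.039 to 0.013 for Sox10, averaged night from −0.0065 to 0.049 for Sox2 and −0.023 to 0.026 for Sox10, and averaged ADX from −0.020 to 0.059 for Sox9. Single noise values ran from −0.015 to 0.10 (night ADX), −0.094 to 0.065 (day ADX), −0.13 to 0.0080 (night sham-operated) and −0.13 to 0.068 (day sham-operated) for Sox10. For Sox9 they ran from −0.12 to 0.036 in night ADX and −0.29 to 0.022 in day sham-operated, and for Sox8 from −0.12 to 0.029 in night sham-operated. Night against day ran from −0.15 to 0.0075 for Sox8 and −0.021 to 0.14 for Sox9 in sham exposure ADX, −0.044 to 0.11 for Sox8 in noise sham-operated, and −0.067 to 0.11 for Sox9 in sham exposure sham-operated. ADX in day sham exposure ran from −0.12 to 0.081 for Sox8.

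In the averaged and the single noise comparisons, genes called moved by over 1.5 times as follows, apart from fits leaving out 1 library. Fits of only 2 groups called 410 for day ADX (667) and 44 for night ADX (83), and 44 for night ADX without the 3 libraries. Voom called 932 for averaged ADX (532), 255 for night sham-operated (119) and 1481 for day ADX. DESeq2 called 878 for averaged ADX, 182 for night ADX, 1285 for day ADX, 210 for night sham-operated and 123 for day sham-operated (41). Night against day in sham exposure sham-operated mice (44) gave 13 with only 2 groups, 22 with the block, 420 with voom and 220 with DESeq2. After noise it gave 0 with only 2 groups, 31 with voom, 433 with DESeq2 and 294 without the 3 in ADX (103), and 31, 493, 494 and 105 in the same settings in sham-operated mice (186). ADX in night sham exposure (263) gave 1262 with voom, 599 with DESeq2 and 400 without the 3. Leaving out 1 library gave 618 to 1145 genes for averaged noise (798), 304 to 898 for averaged ADX and 144 to 2254 for day ADX. The highest was reached without day noise ADX a for averaged noise and day ADX, and without night noise ADX a for averaged ADX. It gave 37 to 134 for night ADX, 23 to 55 for day sham-operated, 6 to 105 for night against day in sham exposure sham-operated, and 0 to 196 for ADX in night sham exposure. Sox2, with the fewest reads, has the least precise values.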

Other observations

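Sox2 was also set against its host transcript Sox2ot, a comparison made after the data had been seen. The log2 of the ratio of Sox2 to Sox2ot counts in a library differed between night and day by a mean of −0.26 (exact permutation p = 0.0150, two-sided; 0.0449 when adjusted over 12 tests on ratios). ADX and sham operation differed by −0.23 (exact permutation p = 0.0407, adjusted 0.0976), which did not pass. Noise against sham exposure gave 0.06 (exact permutation p = 0.597). The ratio averaged 3.38 ± 0.239 in night noise ADX, 4.82 ± 0.350 in day noise ADX, 3.92 ± 0.439 in night noise sham-operated and 4.38 ± 0.962 in day noise sham-operated (SD, n = 3 each). Without noise it averaged 3.21 ± 0.175 in night ADX, 3.53 ± 0.342 in day ADX, 4.25 ± 0.963 in night sham-operated and 5.08 ± 1.34 in day sham-operated. These are 3 of 12 tests on ratios of counts, and neither Sox2 nor Sox2ot passed on its own in either comparison (Sox2ot at night 0.27, adjusted p = 0.172). The ratio of Sox8 to Sox9 differed between night and day by −0.21 in log2 (exact permutation p = 0.0111, adjusted 0.0444). The 12 tests include the noise tests of Sox8 to Sox10 and to Sox9, added after the fall of Sox8 had been seen. Their small p-values lower the adjusted values of the other ratio tests, so neither adjusted night value is taken as a pass.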
